A study of Mus musculus with 8 samples.

Results

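Venous smooth muscle cells of the mouse liver were taken as the cells that the authors' community clustering of mesenchymal cells placed in clusters m9c and m15c. They numbered 72 of the 1336 mesenchymal cells and of the 3451 liver cells analysed, with 39 cells in m9c and 33 in m15c. The study sorted single cells from enzymatically dissociated livers of adult mice, aged from 8 weeks to a year, into plates and sequenced each by Smart-seq2, a full-length method that counts reads per gene and cell. The animals were *C57BL6/J* and heterozygous reporter mice (*Pdgfrb-GFP*, *Pdgfra-H2bGFP*, *Cspg4-dsRED*, *Acta2-GFP*, *Cldn5-GFP* and their combinations), all healthy, and the labels name neither the mouse nor the reporter of a cell. Male and female cells of a class form separate samples of the series, called pools here, and each pool was the replicate.

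The pools were uneven, with 29 male and 10 female cells in m9c but 7 male and 26 female cells in m15c. Cells had been enriched by sorting, so these numbers were not read as abundance in the liver, and their cause was not tested. The male cells came from 6 plates in m9c and 4 in m15c, whereas all female cells shared 1 plate, so sex and plate cannot be told apart. The cells held 50517 to 832407 counts each, and the median was 201685 in m9c and 256586 in m15c. Summed over cells, m9c held 5997910 male and 4061829 female counts and m15c held 1634619 and 7495054. The male m15c sum therefore rested on the fewest cells and counts, and 1 of its 7 cells held 832407 of them (50.9%), against 8.3% to 18.7% for the deepest cell of the other 3 sums. Male m15c levels below thus lean on 1 cell, and the comparisons were also run without it, a choice made after seeing the data. Without it the level of a gene can stand at most 2.04-fold higher, where that cell held none of its counts. For many but not all genes below, the male m15c level without it is given too. Levels below are CPM, the share of a gene in such a sum scaled to 1e6 counts, and each cluster has 2 pools from which to estimate the spread.

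Smooth muscle cells wrap arteries and veins and contract through actin and smooth muscle myosin, under the control of calcium entry, vasoactive receptors and ion channels. In the liver, the portal vein brings blood from the gut and the central veins collect it after the sinusoids, and both carry a thinner muscle coat than the hepatic artery. The wall cells also make the matrix around them, from basement membrane and collagens to elastic fibres. The markers that defined the search for these cells were *Chrdl1*, an antagonist of bone morphogenetic proteins (BMP), *Col8a1*, a short-chain collagen chain of vessel walls, *Npnt*, the matrix protein nephronectin that binds an integrin containing *Itga8*, *Slc22a3*, an organic cation transporter that takes up monoamines, and *Cnn1*, calponin, which binds actin in contractile smooth muscle.

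Both clusters carried smooth muscle transcripts, below the level of arterial cells in m9c. The summed level of the smooth muscle markers was 8753 and 10454 CPM in m9c, 11934 and 16147 CPM in m15c and 18872 and 19554 CPM in m2c. *Acta2*, smooth muscle actin, measured 3309 CPM (male pool) and 3023 CPM (female pool) in m9c and 5661 and 5951 CPM in m15c, beside 7914 and 5895 CPM in the arterial cluster m2c. *Myh11*, smooth muscle myosin, measured 972 and 1068 CPM in m9c, 2873 and 5987 CPM in m15c and 3923 and 5684 CPM in m2c, here and below with the male pool first. Without its deepest cell the male m15c sum held 8705 CPM of *Acta2* and 2625 CPM of *Myh11*. Reporters driven by *Acta2* and *Pdgfrb* were among those sorted on, and their part in the levels of these genes was not tested. The authors' annotation gave all 39 m9c cells and 71 m8c cells a venous label, and 32 of the 33 m15c cells an elastic smooth muscle label, with the remaining m15c cell labelled venous. In the coarser multilevel clustering, 34 m9c cells fell in cluster m5 and 32 m15c cells in m6. Since the 5 markers did not mark the clusters alike, as shown next, the clusters are called by their numbers.

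The 5 markers split the cells rather than joining them. *Col8a1* measured 1207 CPM (male pool) and 672 CPM (female pool) in m9c, against 0 and 1.2 CPM in m15c. *Npnt* showed the opposite order, with 985 CPM (male pool) and 1790.0 CPM (female pool) in m15c and 0.167 and 3.69 CPM in m9c. *Slc22a3* measured 445 and 329 CPM in m15c and 0.167 and 0.739 CPM in m9c. The male *Slc22a3* level came from 2 of 7 cells, at 662 and 1236 CPM, with a median of 0. Without the deepest male m15c cell the male levels were 683 CPM for *Npnt* and 221 CPM for *Slc22a3*, still above m9c. For none of these genes did a pool of m9c overlap with one of m15c, which held for 32.6% of all tested genes. *Chrdl1* was counted in both clusters, at 1110.4 and 877 CPM in m9c and 121 and 75.2 CPM in m15c. *Cnn1* measured 1539 and 2125 CPM in m15c and 122 and 281 CPM in m9c, but also 1150.3 and 1168 CPM in m2c, so it did not set the venous clusters apart from arterial cells. The deepest male m15c cell held 0 counts of *Chrdl1* and 57.2% of those of *Cnn1*, and without it the male m15c levels were 247 and 1341 CPM. *Col8a1*, *Npnt* and *Slc22a3* were thus each at or near 0 in 1 of the venous clusters.

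**Figure D1:**
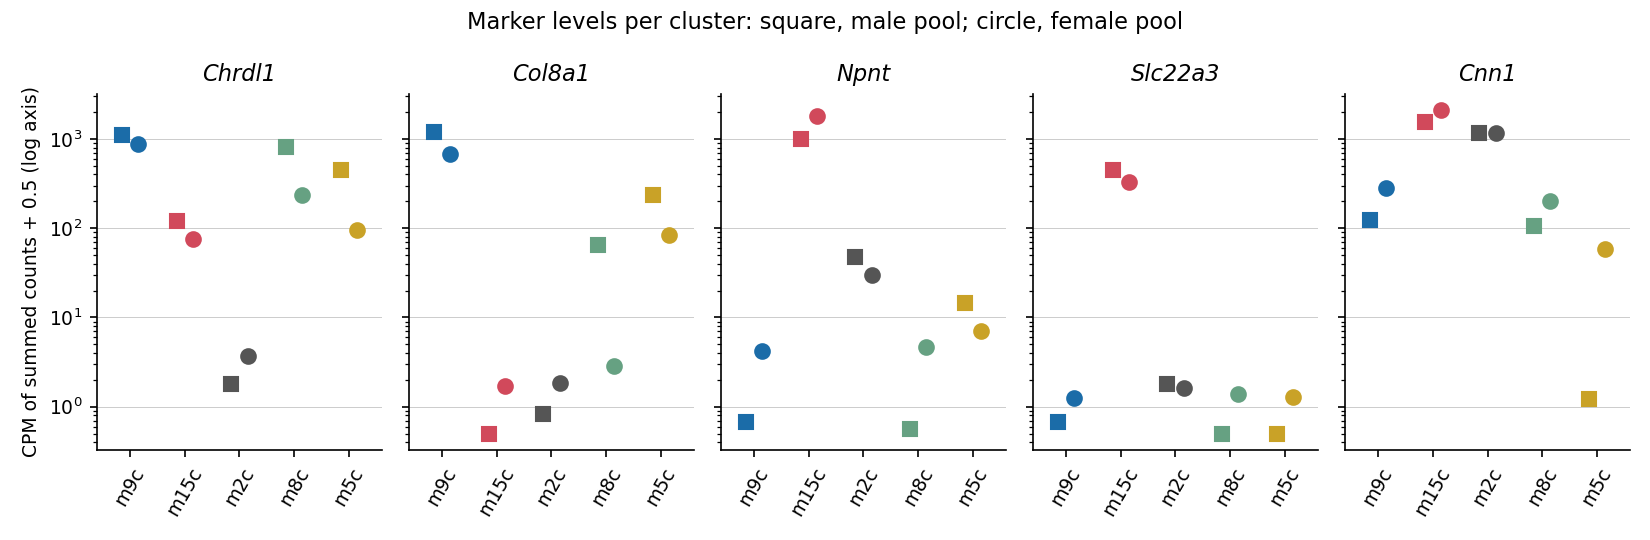
Levels of the 5 markers in the mural clusters m9c, m15c, m2c, m8c and m5c, as CPM of summed counts plus 0.5 on a log axis, with the male pool as a square and the female pool as a circle. *Col8a1* reached 1207 and 672 CPM in m9c and at most 1.2 CPM in m15c, while *Npnt* reached 985 and 1790.0 CPM in m15c and at most 3.69 CPM in m9c.

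The same split held cell by cell. At least 20 counts of *Col8a1* were found in 26 of 39 m9c cells and in 0 of 33 m15c cells, and at least 20 counts of *Npnt* in 25 of 33 m15c cells and in 0 of 39 m9c cells. No cell of either cluster passed this limit for both genes. In m9c, 20 cells passed it for *Chrdl1* and *Col8a1* together, 9 for *Chrdl1* alone and 6 for *Col8a1* alone. In m15c, the 12 cells that passed it for *Slc22a3* all passed it for *Npnt* too, and 13 more passed it for *Npnt* without *Slc22a3*. *Slc22a3* was therefore found within the *Npnt* cells of m15c. *Cnn1* reached 20 counts in 30 m15c and 9 m9c cells, and *Chrdl1* in 5 m15c and 29 m9c cells. These cells span both sexes, and the sex makeup of m9c and m15c differs.

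**Figure D2:**
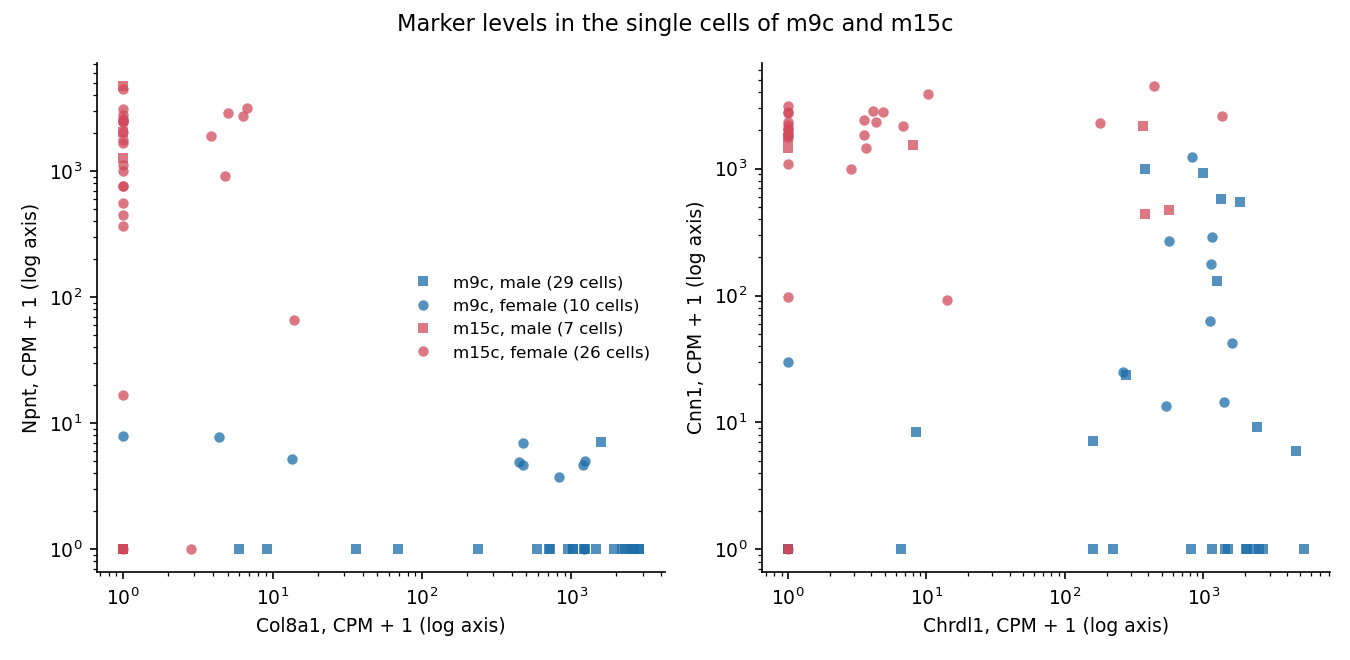
Levels of *Col8a1* against *Npnt* and of *Chrdl1* against *Cnn1* in each m9c cell (blue) and m15c cell (red), as CPM plus 1 on log axes, with squares for male and circles for female cells. The cells with much *Col8a1* lay along the horizontal axis and those with much *Npnt* along the vertical axis, with 0 cells at 20 or more counts of both.

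Counted as any read at all, the shares were 82.1% of m9c cells for *Col8a1* (exact binomial 95% interval 66.5% to 92.5%) and 81.8% of m15c cells for *Npnt* (64.5% to 93.0%). For *Slc22a3* the share was 54.5% of m15c cells (36.4% to 71.9%). These intervals treat the cells of both pools as independent draws and do not cover the spread between pools. Thinned to 50000 counts per cell, a limit that all members reached, the shares with a count were 76.9% for *Col8a1* in m9c and 6.06% in m15c. For *Npnt* they were 81.8% in m15c and 5.13% in m9c. Low counts of these genes were also found in female cells of other mural clusters, which shared the plate, and *Cnn1* was counted in 100% of the 21 female m5c cells at 58.5 CPM but in 0% of 354 female Kupffer cells. *Npnt* likewise had counts in 64.2% of female m2c cells at 29.5 CPM. A share of female mural cells with a single count was therefore not read as expression, and the part of such counts in the results was not tested. Within m15c, *Npnt* was counted in 92.3% of female and 42.9% of male cells, the latter being 3 of 7 cells with up to 4708 CPM in a cell.

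Across the other cells of the series, *Slc22a3* exceeded 20 CPM in m15c alone. *Npnt* was next highest in 9 female peribiliary fibroblasts at 160 CPM, against 985 and 1790.0 CPM in m15c. *Chrdl1* measured 811 and 237 CPM in m8c, the portal vein mural cluster, and 452 and 95.7 CPM in m5c, annotated as second layer cells. *Col8a1* measured 233 and 83.2 CPM in m5c and 64.4 and 2.39 CPM in m8c, levels that differed between the pools of each. Over the 15177 genes tested, the log levels of m9c were nearest to m5c among the mural clusters (Pearson r across genes 0.769 in the male and 0.729 in the female pool). Those of m15c were nearest to m2c in the female pool (0.769), while its male pool lay about as near to m2c (0.594), m8c (0.593) and m5c (0.590). The correlations share pool, plate and depth and genes are not independent, so they are descriptions. Between its own pools m9c gave 0.711 and m15c 0.622, the latter with 7 male cells.

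Set against each other, m9c held more transcripts of the collagen IV chains, a complement lectin, a Wnt inhibitor and thrombomodulin, and m15c more of *Mfap5*, *Msra* and *Map1b*. The summed counts of the 5 mural clusters were fitted together with the quasi-likelihood test of edgeR, and a gene was called where its Benjamini-Hochberg adjusted p fell below 0.05 and its levels differed by 1 or more on the log2 scale. Of 15177 genes, 27 (0.178%) were called, 24 (0.158%) higher in m9c and 3 (0.0198%) higher in m15c. With upper quartile in place of TMM scaling these counts were 10 and 3. With the pool as a block there were 75 calls (0.494%), 61 (0.402%) higher in m9c and 14 (0.0922%) in m15c, and all 27 were among them. Leaving out the male m15c sum, which held 7 cells, gave 0 calls (1530 genes at an unadjusted p under 0.05), and DESeq2 gave 628 and 556. Sums per plate gave 0 and 0 calls (984 genes at an unadjusted p under 0.05) and the fit of the compared clusters alone 4 and 3. Leaving out only the deepest cell of that sum gave 10 and 2 calls. Of the 24 genes 6 were still called, namely *Arvcf*, *Colec11*, *Frzb*, *Hsd11b1*, *Ifitm1* and *Steap4*, and of the 3 genes *Map1b* and *Msra*. The other 18 and *Mfap5* were not, among them *Col8a1*, *Thbd*, *Col4a1*, *Col4a2* and *Col14a1* (adjusted p = 0.0571, 0.0688, 0.0688, 0.143 and 0.0688). Their log2 fold changes without the cell were 10.1, 5.95, 2.02, 2.17 and 2.22, in the same direction as with it, and that cell held 0 counts of *Col8a1*. All adjusted p values below are from edgeR. Because the authors drew the clusters from the same genes in the same cells, such calls describe how m9c and m15c differ beyond the spread between pools and are no independent evidence for the clusters. The median log2 fold change over all tested genes was 0.14.

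*Col8a1* led the m9c side with a log2 fold change of 10.27 ± 1.7, where the error is the standard error of the fit (adjusted p = 0.0385). *Frzb*, a secreted inhibitor of Wnt ligands, measured 249 and 433 CPM in m9c and 0.612 and 2.0 CPM in m15c (log2 fold change 7.97 ± 1.26, adjusted p = 0.033) and was the 1 call of 18 Wnt genes. *Arvcf*, a catenin that binds cadherins, measured 963 and 1088 CPM in m9c and 5.51 and 25.5 CPM in m15c (log2 fold change 6.12 ± 0.78, adjusted p = 0.0266). For all of these the pools of m9c and m15c lay far apart. *Thbd*, thrombomodulin, which turns thrombin toward anticoagulation, measured 467 and 489 CPM in m9c and 4.28 and 13.9 CPM in m15c (log2 fold change 5.79 ± 0.89, adjusted p = 0.0285). *Steap4*, a metalloreductase, measured 414 and 171 CPM in m9c and 3.67 and 14.8 CPM in m15c (log2 fold change 5.05 ± 0.75, adjusted p = 0.0266). *Hsd11b1*, which regenerates active glucocorticoid, measured 731 and 294 CPM in m9c and 28.1 and 37.4 CPM in m15c (log2 fold change 4.09 ± 0.58, adjusted p = 0.0266). *Steap4* and *Hsd11b1* were therefore also the genes whose m9c pools differed most from each other in this group.

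*Ifitm1*, an interferon-inducible membrane protein, measured 371 and 494 CPM in m9c and 19.0 and 39.4 CPM in m15c (log2 fold change 3.99 ± 0.57, adjusted p = 0.0266). *Ms4a4d*, a tetraspan membrane protein, measured 406 and 318.3 CPM in m9c and 19.6 and 21.3 CPM in m15c (log2 fold change 4.27 ± 0.68, adjusted p = 0.033). *H2-Q7*, a class I histocompatibility gene, measured 454 and 439 CPM in m9c and 41.6 and 18.3 CPM in m15c (log2 fold change 4.04 ± 0.66, adjusted p = 0.0344), and its reads may be shared with close paralogs. *Gm20547* measured 751 and 1237 CPM in m9c and 90.5 and 77.1 CPM in m15c (log2 fold change 3.69 ± 0.63, adjusted p = 0.0435), but its exons overlap those of the complement genes *C2* and *Cfb* on the same strand, so the source of its reads is uncertain. *Ndufa4l2*, a mitochondrial protein induced in low oxygen, measured 256 and 355 CPM in m9c and 28.8 and 26.3 CPM in m15c (log2 fold change 3.6 ± 0.54, adjusted p = 0.0266). In each of these genes both m9c pools lay above both m15c pools.

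Basement membrane and collagen genes were called in the same direction. The network collagen chains *Col4a1* and *Col4a2* were the 2 calls among 19 tested basement membrane genes, at 1754 and 1280.2 CPM in m9c against 250.2 and 327 CPM in m15c (log2 fold change 2.52 ± 0.36, adjusted p = 0.0266) and at 995 and 614 CPM in m9c against 139 and 122 CPM in m15c (log2 fold change 2.75 ± 0.44, adjusted p = 0.0344). Their transcripts overlap by 22 bases on opposite strands. *Col14a1*, which binds collagen fibrils, measured 4626 and 3394 CPM in m9c and 768 and 678 CPM in m15c (log2 fold change 2.6 ± 0.38, adjusted p = 0.0266). With *Col8a1* it was the second call among 15 tested fibrillar and short-chain collagens, whose median log2 fold change was 1.04. Between the clusters, 10 of these 15 genes did not overlap and were higher in m9c and 0 in m15c, beside 18% and 14.7% of all genes. Without the deepest male m15c cell the counts were 9 and 1, and the *Col4a1* and *Col14a1* levels of that pool were 509.8 and 1255 CPM. Among 19 basement membrane genes the median was 1.15, and laminin *Lama2*, at 780.1 and 379 CPM in m9c and 90.5 and 21.3 CPM in m15c, was called with the block only (adjusted p = 0.108 without and 0.0258 with it). The deepest cell held 73.0% of the male m15c counts of *Lama2*, and the level was 49.9 CPM without it.

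Among 19 chemokine and complement genes, *Colec11*, a lectin of the complement pathway, was called at 2269 and 2168 CPM in m9c and 159.7 and 377 CPM in m15c (log2 fold change 3.16 ± 0.41, adjusted p = 0.0266). *Cxcl12*, the ligand of the receptor CXCR4, measured 3615 and 3249.8 CPM in m9c and 317 and 942 CPM in m15c, with an adjusted p of 0.0575 without the block and 0.0282 with it. The median of this list was 2.31, and 10 of 19 genes did not overlap and were higher in m9c, against 1 higher in m15c, beside 18% and 14.7% of all genes. The remaining calls on the m9c side, listed after their values were seen, were *Actn4*, *C2*, *Epas1*, *Fn1*, *H2-D1*, *Igfbp3*, *Pcolce*, *Rnase4* and *Timp3*. They include fibronectin (*Fn1*), a hypoxia-responsive transcription factor (*Epas1*) and an inhibitor of matrix proteases (*Timp3*).

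On the m15c side, *Mfap5*, a microfibril protein of elastic fibres, measured 340.1 and 256 CPM in m15c and 1.5 and 1.48 CPM in m9c (log2 fold change -7.51 ± 1.22, adjusted p = 0.0344), and it reached at most 1.26 CPM in m2c. In the male pool 66% of its counts came from the deepest cell, without which the level was 236 CPM, the log2 fold change -7.21 and the adjusted p 0.0688. *Msra*, which repairs oxidised methionine, measured 392 and 213 CPM in m15c and 7.17 and 3.2 CPM in m9c (log2 fold change -5.72 ± 0.86, adjusted p = 0.0266). *Map1b*, a microtubule-associated protein best known from neurons, measured 1225 and 1151 CPM in m15c and 14.8 and 42.1 CPM in m9c (log2 fold change -5.27 ± 0.67, adjusted p = 0.0266). *Msra* and *Map1b* were also counted in arterial cells, at 189 and 224 CPM and at 571 and 739 CPM in m2c. *Mfap5* was the only call among 19 elastic fibre genes, and *Ltbp1*, a latent TGF-beta binding protein, joined it with the block at 1079 and 739 CPM in m15c and 85.7 and 31.0 CPM in m9c (adjusted p = 0.0726 without and 0.00678 with it). Its male m15c level was 462 CPM without the deepest cell, which held 79% of those counts.

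**Figure D3:**
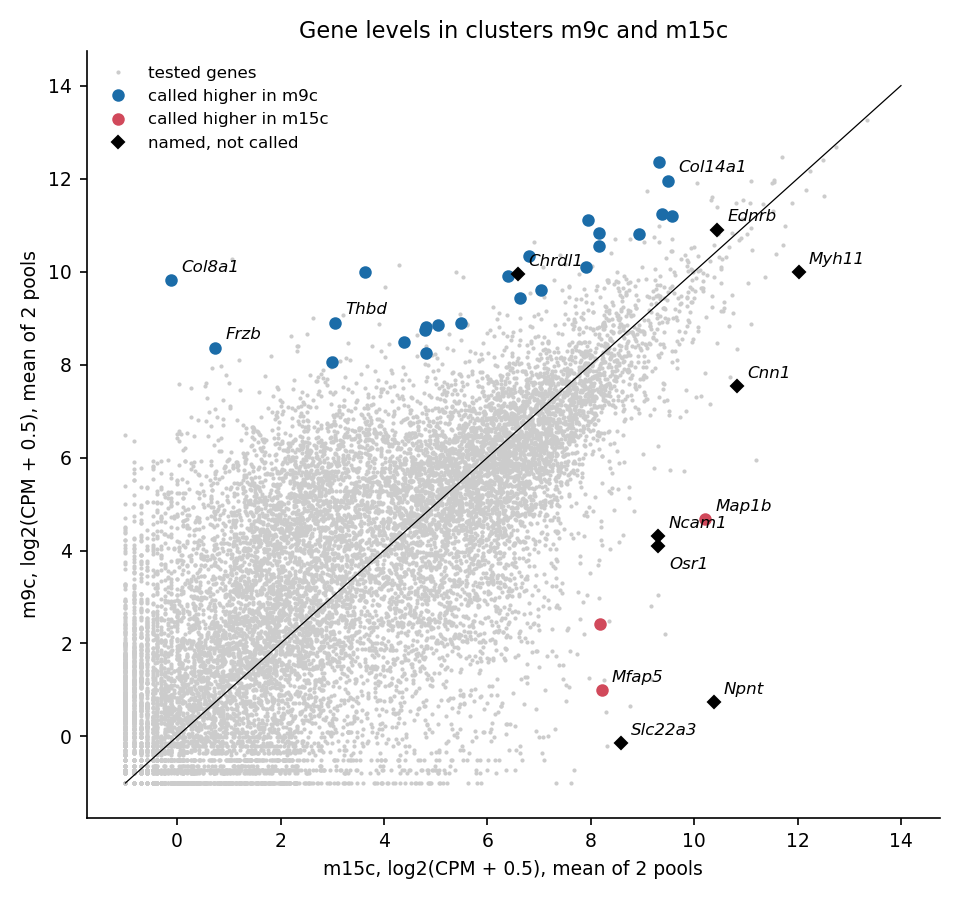
Mean over the 2 pools of log2(CPM + 0.5) for 15177 genes in m15c (horizontal) and m9c (vertical), with genes called higher in m9c in blue, in m15c in red, and named genes without a call as black diamonds. *Col8a1*, *Frzb* and *Thbd* lay far above the line of equality and *Mfap5* and *Map1b* far below it. *Npnt* and *Slc22a3* lay as far below but were not called.

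The other 4 markers fell short of the limit without the block. For *Npnt* the log2 fold change was -9.44 ± 1.71 (adjusted p = 0.063, and 0.0389 with the block), and for *Slc22a3* it was -9.66 ± 2.08 (adjusted p = 0.0987). For *Chrdl1* it was 3.47 ± 0.8 (adjusted p = 0.118), and for *Cnn1* -3.07 ± 1.2 (adjusted p = 0.403). For each of these the pools of m9c and m15c did not overlap. *Ncam1*, a neural cell adhesion molecule, measured 677 and 585 CPM in m15c and 12.7 and 29.3 CPM in m9c (log2 fold change -4.79 ± 0.96, adjusted p = 0.0789), and 21 of the 25 m15c cells with *Npnt* at 20 or more counts also had *Ncam1* at that limit. *Osr1*, a zinc finger transcription factor, measured 513 and 783 CPM in m15c and 22.8 and 12.1 CPM in m9c (log2 fold change -5.08 ± 1.0, adjusted p = 0.0744). *Ncam1* was not limited to m15c among mural cells, since m5c held 398 and 295 CPM, whereas *Osr1* reached at most 22.8 CPM in m9c and 17.7 CPM in m5c. Without the deepest cell the male m15c pool held 354 CPM of *Ncam1* and 237 CPM of *Osr1*.

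The contractile genes lay closer together than these markers. Of 18 tested, 0 were called without the block, while 1707 of all genes had an unadjusted p under 0.05, and 2 were called higher in m15c with it. *Myh11* showed a log2 fold change of -2.0 ± 0.44, with an adjusted p of 0.105 without and 0.0165 with the block. *Tpm1*, tropomyosin, measured 3009 and 3118 CPM in m15c and 1332 and 1319 CPM in m9c, with 0.0842 and 0.0223. In 15 of the 18 genes the pools did not overlap and were higher in m15c, and the list median was -1.12, beside 14.7% of all genes and a median of 0.14. *Smtn*, smoothelin, measured 1211 and 1167 CPM in m15c and 207 and 242 CPM in m9c, and *Actg2*, enteric smooth muscle actin, measured 1859 and 2565 CPM in m15c and 263 and 840.0 CPM in m9c. *Des*, the intermediate filament desmin, went the other way at 520.0 and 947 CPM in m15c and 1072 and 1488 CPM in m9c (adjusted p = 0.401). In m15c the level of *Tpm1* thus lay near that of m2c, at 3064 and 2925 CPM. *Smtn* measured 1401 and 1236 CPM in m2c, and its male m15c level was 699 CPM without the deepest cell.

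**Figure D4:**
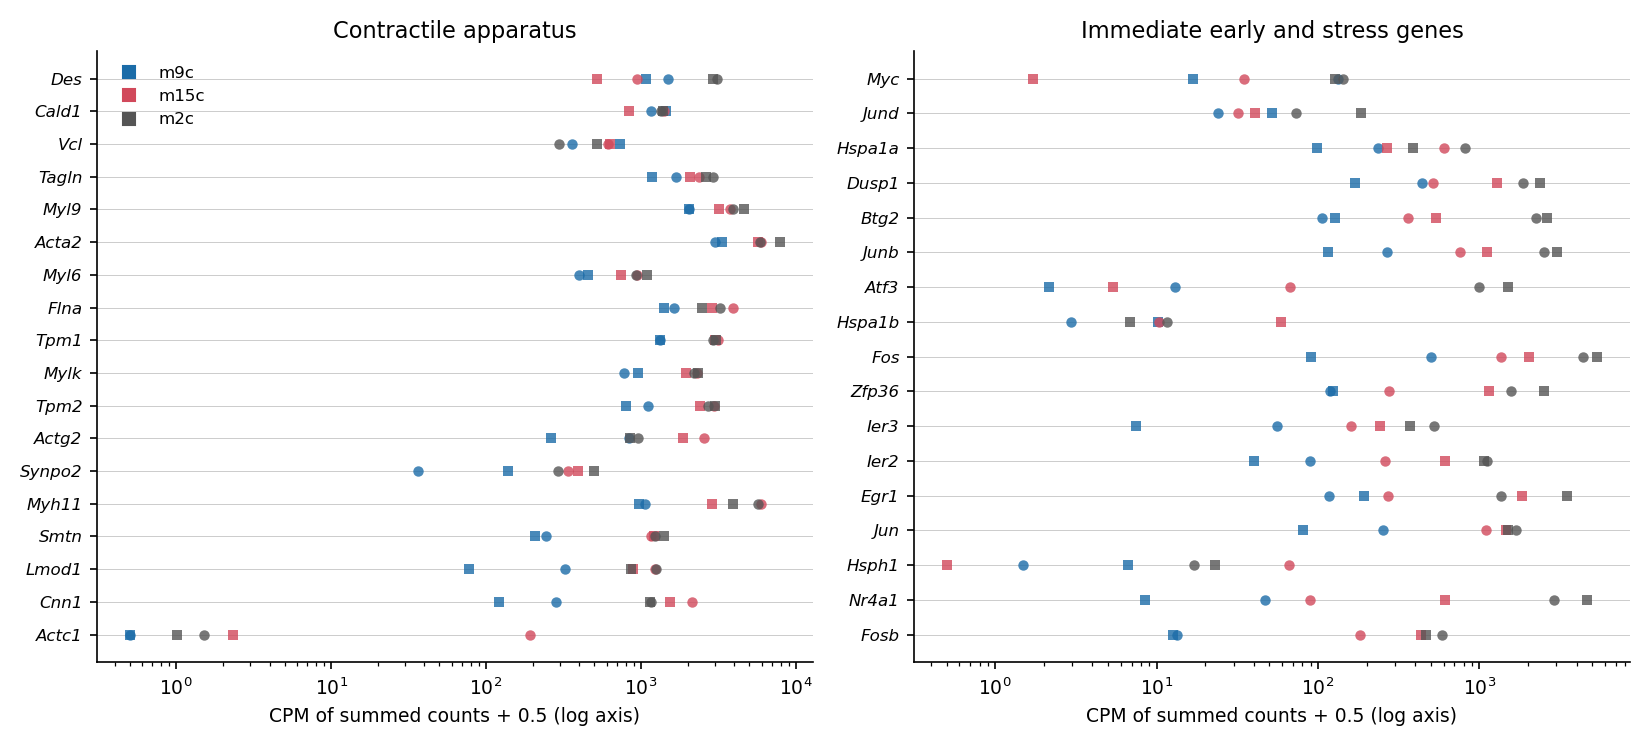
Contractile genes (left) and immediate early and stress genes (right) as CPM of summed counts plus 0.5 on a log axis, with squares for male and circles for female pools of m9c (blue), m15c (red) and m2c (grey), ordered by the log2 fold change of m9c over m15c. Most contractile genes lay lower in m9c than in m15c, as for *Smtn* at 207 and 242 against 1211 and 1167 CPM, and most immediate early genes were ordered m9c, m15c, m2c.

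Immediate early genes, which respond within minutes to stimuli and to tissue dissociation, were ordered in the same way. Of 17 tested, 13 did not overlap and were higher in m15c, 0 were higher in m9c, beside 14.7% and 18% of all genes, and the median log2 fold change was -2.41. Without the deepest male m15c cell 8 did not overlap and were higher in m15c, beside 13.2% of all genes, and the median was -1.52. The male m15c levels were then 13.7 CPM for *Ier2*, 33.7 CPM for *Fosb*, 244 CPM for *Dusp1* and 1212 CPM for *Fos*, from 611, 434, 1289.6 and 2021 CPM. *Jun* measured 1463 and 1104 CPM in m15c and 80.0 and 254 CPM in m9c and was called with the block only (adjusted p = 0.0733 without and 0.0223 with it), the others in neither fit. *Fos* measured 2021 and 1363 CPM in m15c and 89.9 and 498 CPM in m9c (log2 fold change -2.41 ± 0.66, adjusted p = 0.204). Contractile and immediate early lists thus both had negative medians here, and the part of the dissociation in either was not tested.

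Receptors and channels followed no single direction. *Ednrb*, an endothelin receptor, was high in both clusters at 2118 and 1722 CPM in m9c and 1606 and 1213 CPM in m15c (log2 fold change 0.58 ± 0.37, adjusted p = 0.566). *Ednra*, the other endothelin receptor, measured 1219.9 and 437 CPM in m15c and 185 and 88.4 CPM in m9c, and was called with the block only (adjusted p = 0.254 without and 0.0173 with it). The deepest male m15c cell held 79% of the male counts of *Ednra*, and without it the level was 521 CPM. *Pdgfrb* and *Heyl*, a growth factor receptor and a Notch target of mural cells, were called higher in m9c with the block only. *Pdgfrb* measured 1025 and 2497 CPM in m9c and 454 and 593 CPM in m15c (adjusted p = 0.113 and 0.0203), and *Heyl* measured 608 and 762 CPM in m9c and 230.0 and 220.4 CPM in m15c (adjusted p = 0.069 and 0.0258). *Kcnmb1*, the beta subunit of a calcium-activated potassium channel, measured 668 and 599.7 CPM in m15c and 2.33 and 23.6 CPM in m9c (log2 fold change -5.51 ± 1.27, adjusted p = 0.119). The integrin chain *Itga8*, a partner of nephronectin, measured 239.6 and 129 CPM in m9c and 261 and 492 CPM in m15c (adjusted p = 0.539). Its male m15c level was 213 CPM without the deepest cell, below the male m9c level. None of the 15 calcium, 10 potassium channel, 26 BMP, 28 axon guidance, 8 monoamine, 5 connexin, 12 retinoid, 16 matricellular and 7 cell cycle genes tested was called in either fit. The 11 Notch, 14 PDGF and TGF-beta, 14 adhesion, 34 transcription factor, 20 vasoactive receptor and 5 nephronectin genes held 0 calls without the block and 1 in each list with it.

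Several genes of the lists were nevertheless at low levels or 0 in m9c or in m15c, and those named here were picked after their values were seen. *Grem1*, a BMP antagonist, had 0 counts in all m9c cells and 385 CPM (male pool) and 100.1 CPM (female pool) in m15c. Over both pools that is at least 506-fold higher than the floor of 3 counts in m9c, with 10 of 33 m15c cells counted (adjusted p = 0.069), and 72.8% of its male counts came from the deepest cell, without which the male level was 213 CPM. *Maob*, a monoamine oxidase, measured 462 and 79.8 CPM in m15c and 12.5 and 0.492 CPM in m9c (adjusted p = 0.19), with 64.0 and 64.0 CPM in m8c and 177 and 96.3 CPM in m5c. The deepest cell held 68.1% of its male m15c counts, and the level was 300 CPM without it. *Ccn5*, a matricellular protein, measured 1322 and 1157 CPM in m9c and 0 and 8.27 CPM in m15c (log2 fold change 8.16 ± 1.97, adjusted p = 0.136), and was also counted in m8c and m5c, at 309 and 99.9 CPM and at 333 and 2.65 CPM. *Vcam1*, a leukocyte adhesion receptor, measured 245 and 254 CPM in m9c and 0 and 6.0 CPM in m15c (adjusted p = 0.0842), with 229 and 112 CPM in m8c and 152 and 217 CPM in m5c.

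Markers of hepatic stellate cells, the vitamin A storing pericytes of the sinusoids, summed to 7674 and 6140 CPM in m9c and 1674 and 1947 CPM in m15c. The sums were 5516 and 4951 CPM in m5c and 4417 and 4759.8 CPM in m8c, so other mural clusters held them too. All 6 listed were above 0 in m9c and in m15c. *Lrat*, which esterifies retinol, measured 1100.4 and 1154 CPM in m9c and 1.22 and 224 CPM in m15c (log2 fold change 3.42 ± 1.38, adjusted p = 0.412), so its female m15c pool stood above the male. *Col14a1*, *Cxcl12* and *Colec11* are expressed by such cells too, and the part of stellate transcripts in those calls was not tested. The 7 fibroblast markers summed to 6287 and 4862 CPM in m9c and 4575 and 4771 CPM in m15c, mostly from *Dcn*. Hepatocyte transcripts were present in all clusters, from 305 to 551 CPM in m9c and m15c, led by *Alb*. Endothelial markers summed to 7.34 to 45.8 CPM and immune markers to 0 to 27.1 CPM there. Of the endothelial markers, *Cdh5*, *Kdr*, *Stab2* and *Clec4g* were at 0 in the male m15c pool.

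Compared together with the arterial smooth muscle cells of m2c (127 male and 109 female cells), m9c and m15c were called higher for 8 of 15 collagens, 6 of 19 elastic fibre genes and 4 of 19 chemokine and complement genes. They were called lower for 9 of 17 immediate early genes, 2 of 10 potassium channel genes, 2 of 11 Notch genes and 1 of 18 contractile genes. The 7 fibroblast markers summed to 252 and 532 CPM in m2c, against at least 4575 CPM in each venous pool. The part of fibroblast transcripts in these calls was not tested. The contrast took the mean of m9c and m15c, so a gene of only 1 cluster counted with the other cluster at its own low level, and it shares the m9c and m15c sums with the comparison above. Of 15177 genes, 193 (1.27%) were called, 114 (0.751%) higher in the venous clusters and 79 (0.521%) higher in m2c. With the block 275 (1.81%) were called, 152 (1%) and 123 (0.81%). Sums per plate gave 35 and 3 calls and the fit of the compared clusters alone 56 and 52. Without the deepest male m15c cell there were 113 and 76, of which 104 and 68 were among the calls above. Of the 114 genes, 22 were protocadherin gamma genes, which share exons, so their reads cannot be told apart and 92 calls remained without them. All 22 tested were called, with log2 fold changes from 2.29 to 2.71. Reads may also be shared where annotated exons overlap on opposite strands, as for *Arvcf*, for *Slc22a3* with *Plg*, *Eng* with *Fpgs* and *Junb* with *Prdx2*. The median log2 fold change over all genes was -0.29.

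*Ednrb* was among the clearest differences. It measured 12.7 and 12.0 CPM in m2c, below every pool of m9c and m15c (log2 fold change 7.08 ± 0.47, adjusted p = 6.7e-05). *Chrdl1* measured 1.31 and 3.21 CPM in m2c (log2 fold change 7.15 ± 0.93, adjusted p = 0.0047), and its lower venous level was that of m15c. *Id1*, a transcriptional target of BMP signalling, was called the other way at 29.2 and 32.7 CPM in m9c, 41.0 and 40.8 CPM in m15c and 351 and 269 CPM in m2c (log2 fold change -3.11 ± 0.63, adjusted p = 0.0328, and log2 fold change -2.83, adjusted p = 0.0653 without the deepest male m15c cell). Of 26 tested BMP genes 3 were called, and the median of the list was 0.88.

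Collagens stood out by their counts. Of 15 tested, 8 were called higher in the venous clusters and 0 in m2c, beside 0.751% and 0.521% of all genes, and the median was 2.59. Stellate markers summed to 1024 and 1108 CPM in m2c and fibroblast markers to 252 and 532 CPM, each below every venous pool. The part of stellate and fibroblast transcripts in the collagen calls was not tested. *Col3a1* measured 5379 and 6015 CPM in m9c, 3083 and 3589 CPM in m15c and 209 and 446 CPM in m2c (log2 fold change 3.79 ± 0.28, adjusted p = 0.000127), and 141 bases of its exons overlap *Gm47302* on the same strand. *Col1a1* measured 3207 and 2551 CPM in m9c, 2216 and 2109 CPM in m15c and 439 and 483 CPM in m2c (log2 fold change 2.47 ± 0.23, adjusted p = 0.00082). *Col1a2* and *Col14a1* had log2 fold changes of 2.6 ± 0.3 (adjusted p = 0.00295) and 3.17 ± 0.37 (adjusted p = 0.00295). The other 4 were *Col5a1*, *Col5a2*, *Col6a1* and *Col6a2*. Of all tested genes, 18.2% did not overlap, 4.32% higher and 13.9% lower in the venous clusters, and 9 of these 15 were among the higher ones. *Col8a1*, low in m15c, was not called (log2 fold change 5.09 ± 1.32, adjusted p = 0.106). *Col6a5*, a chain of collagen VI outside the list, measured 392 and 342 CPM in m9c, 57.5 and 34.0 CPM in m15c and 0.842 and 4.14 CPM in m2c (log2 fold change 5.76 ± 1.04, adjusted p = 0.0181).

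Elastic fibre genes went the same way, with 6 of 19 called higher in the venous clusters and 0 in m2c, beside 0.751% and 0.521% of all genes. Their median was 1.82. *Fbln5*, a fibulin needed to assemble elastin, measured 1204 and 1281 CPM in m9c, 1115 and 661 CPM in m15c and 106 and 79.4 CPM in m2c (log2 fold change 3.52 ± 0.36, adjusted p = 0.00154). *Mfap4*, a microfibril-associated glycoprotein, measured 238 and 432 CPM in m9c, 1611 and 2035 CPM in m15c and 20.9 and 96.9 CPM in m2c (log2 fold change 3.8 ± 0.59, adjusted p = 0.0101), and *Fbln1* showed a log2 fold change of 3.72 ± 0.51 (adjusted p = 0.00649) and *Ltbp4* one of 1.82 ± 0.36 (adjusted p = 0.0327). *Fbln1* and *Mfap4* stood higher in m15c than in m9c in both pools. *Ltbp2*, a latent TGF-beta binding family protein of microfibrils, measured 905 and 862 CPM in m9c, 374 and 341 CPM in m15c and 1.31 and 8.67 CPM in m2c (log2 fold change 6.89 ± 1.0, adjusted p = 0.0074), and *Efemp1*, another fibulin, was also called. *Eln*, elastin itself, measured 679.9 and 496 CPM in m9c, 477 and 126 CPM in m15c and 103 and 229 CPM in m2c (log2 fold change 1.39 ± 0.56, adjusted p = 0.332). Its male m15c level was 723 CPM without the deepest cell, above the male m9c level.

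**Figure D5:**
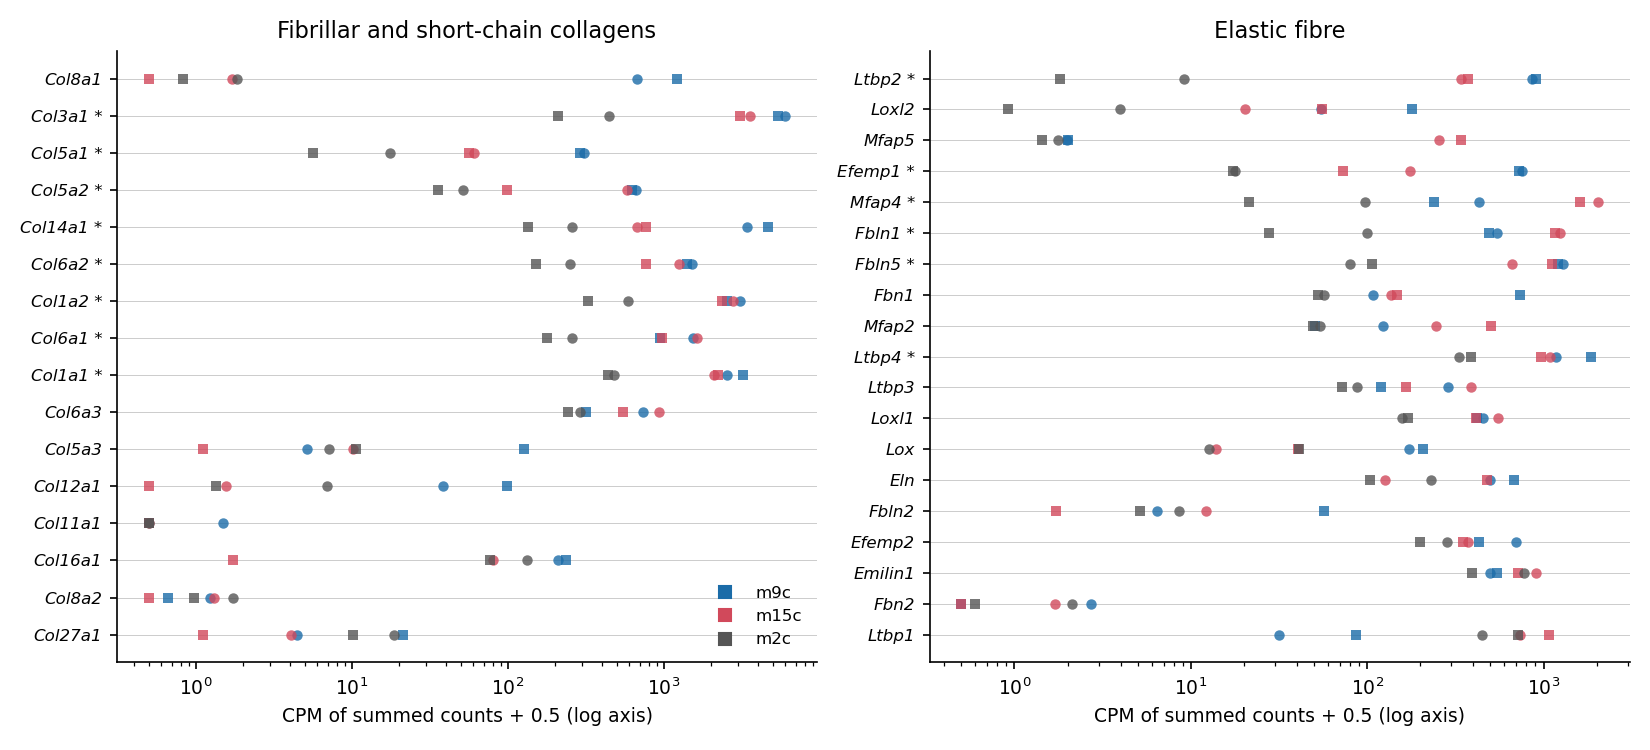
Collagen genes (left) and elastic fibre genes (right) as CPM of summed counts plus 0.5 on a log axis, with squares for male and circles for female pools of m9c (blue), m15c (red) and m2c (grey), ordered by the log2 fold change of the venous clusters over m2c, with an asterisk on called genes. The 8 called collagens and 6 called elastic fibre genes had every venous pool to the right of both m2c pools, as for *Fbln5*, while *Mfap5* exceeded 10 CPM only in m15c.

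Secreted factors and receptors with calls included the following. *Dkk3*, a secreted relative of Wnt inhibitors, measured 807 and 733 CPM in m9c, 585 and 589.7 CPM in m15c and 8.84 and 39.2 CPM in m2c (log2 fold change 4.88 ± 0.63, adjusted p = 0.0047), the 1 call of 18 Wnt genes. Of 19 chemokine and complement genes 4 were called, among them *Cxcl12*, *Colec11* and *Ccl19*, with log2 fold changes of 2.23 ± 0.42, 2.86 ± 0.38 and 3.55 ± 0.65 and adjusted p of 0.022, 0.00487 and 0.0192. *Tnfrsf11b*, osteoprotegerin, measured 492 and 411 CPM in m9c, 119 and 112 CPM in m15c and 0.14 and 4.71 CPM in m2c (log2 fold change 6.64 ± 1.28, adjusted p = 0.0266, and log2 fold change 6.14, adjusted p = 0.16 without the deepest male m15c cell). In all of these genes the venous pools lay above both m2c pools except for *Cxcl12*, where the male m15c pool at 317 CPM lay below the female m2c pool at 438 CPM. This order rested on 1 cell, since without the deepest male m15c cell that pool held 638 CPM of *Cxcl12* and 0 CPM of *Tnfrsf11b*, all of whose male m15c counts came from it. *Eng*, endoglin, a coreceptor for TGF-beta and BMP ligands, measured 1044 and 1137 CPM in m9c, 518 and 499 CPM in m15c and 125 and 273 CPM in m2c (log2 fold change 1.96 ± 0.34, adjusted p = 0.0145), the 1 call of 14 PDGF and TGF-beta genes. *Adra2b*, an adrenergic receptor, measured 569 and 567 CPM in m9c, 274 and 72.2 CPM in m15c and 35.8 and 27.3 CPM in m2c (log2 fold change 3.32 ± 0.63, adjusted p = 0.0243), and 168 CPM in the male m15c pool without its deepest cell.

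Among 14 adhesion genes, *Sdc1* and *Ncam1* were called higher in the venous clusters and *Mcam* in m2c. *Sdc1*, a syndecan, measured 734 and 577 CPM in m9c, 431 and 76.5 CPM in m15c and 22.3 and 7.53 CPM in m2c (log2 fold change 4.75 ± 0.78, adjusted p = 0.0132). Its male m15c level was 878 CPM without the deepest cell, above the male m9c level. *Ncam1* measured 1.17 and 6.78 CPM in m2c (log2 fold change 4.92 ± 0.93, adjusted p = 0.0236), its venous level resting on m15c. Likewise *Osr1*, the 1 transcription factor of 34 called higher, measured 1.59 and 7.65 CPM in m2c (log2 fold change 4.6 ± 0.94, adjusted p = 0.0347) and was mostly in m15c, where 77.3% of its male counts came from the deepest cell (log2 fold change 4.43, adjusted p = 0.0746 without it). Of 12 retinoid genes 2 were called, among them *Aldh1a1*, a retinal dehydrogenase, with a log2 fold change of 3.18 ± 0.49 (adjusted p = 0.0107). *Sparc*, a collagen-binding matricellular protein, showed a log2 fold change of 1.01 ± 0.19 (adjusted p = 0.0236). The other genes with the largest changes were *Qpct*, *Pcolce2*, *Nr1h4* and *Gpm6b*, with log2 fold changes from 5.72 to 6.22. *Nr1h4*, the bile acid receptor FXR, measured 331 and 265 CPM in m9c, 76.5 and 11.6 CPM in m15c and 0.889 and 3.48 CPM in m2c (log2 fold change 5.76 ± 0.97, adjusted p = 0.0132). The deepest cell held 99.2% of the male m15c counts of *Nr1h4*, and without it that pool held 1.25 CPM, between the m2c pools. *Qpct* measured 283 and 311 CPM in m9c, 388 and 316 CPM in m15c and 1.17 and 7.98 CPM in m2c, and its male m15c level was 179.5 CPM without that cell.

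The genes called higher in m2c differed in how much of them the venous clusters held. *Gpr20*, an orphan receptor and arterial marker, measured 559 and 701 CPM in m2c, 0.333 and 6.4 CPM in m9c and 0 and 10.3 CPM in m15c (log2 fold change -7.16 ± 1.46, adjusted p = 0.0344). *Sncg*, gamma-synuclein, measured 664 and 778 CPM in m2c, 0.834 and 12.1 CPM in m9c and 26.3 and 14 CPM in m15c (log2 fold change -5.97 ± 1.05, adjusted p = 0.0157), and was the 1 call among 8 monoamine genes. The voltage-gated potassium channel genes *Kcna5* and *Kcnab1*, 2 of 10 tested channel genes, measured 228 and 185 CPM and 366 and 283 CPM in m2c, and at most 3.2 CPM in a venous pool (log2 fold change -7.36 ± 1.51, adjusted p = 0.0352, and log2 fold change -7.42 ± 1.31, adjusted p = 0.0162). Female m5c cells held low levels of these genes too, with *Gpr20*, *Sncg* and *Rasd1* at 7.94, 14.3 and 14.8 CPM. *Rasd1*, a Ras family protein, and *Pln*, which restrains the calcium pump of the sarcoplasmic reticulum, were called with the block only. *Rasd1* measured 604 and 702 CPM in m2c, 0 and 12.8 CPM in m9c and 2.45 and 11.2 CPM in m15c (adjusted p = 0.0609 and 0.00825). *Pln* measured 908 and 566 CPM in m2c, 0.5 and 5.42 CPM in m9c and 217 and 54.4 CPM in m15c (adjusted p = 0.0728 and 0.0494). The deepest of the 7 male m15c cells, at 426 CPM, held all of its male counts there, and the level was 0 CPM without it.

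Other called arterial genes were the calcineurin regulator *Rcan2*, 1 of 15 calcium genes, at 2200.3 and 1576 CPM in m2c, 225 and 130.5 CPM in m9c and 41.6 and 179 CPM in m15c (log2 fold change -3.73 ± 0.54, adjusted p = 0.0074). *Gucy1a1*, a subunit of the nitric oxide receptor guanylate cyclase, showed a log2 fold change of -1.58 ± 0.33 (adjusted p = 0.0416, and log2 fold change -1.35, adjusted p = 0.0759 without the deepest male m15c cell), so that 3 of 20 vasoactive receptor genes were called in all. *Col18a1*, a basement membrane collagen, measured 584 and 1142 CPM in m2c, 135 and 188 CPM in m9c and 55.7 and 101 CPM in m15c (log2 fold change -2.89 ± 0.41, adjusted p = 0.0074), the 1 call of 19 in that list. *Sparcl1* measured 4959 and 4301 CPM in m2c, 522 and 407 CPM in m9c and 179 and 666 CPM in m15c (log2 fold change -3.36 ± 0.39, adjusted p = 0.00295), opposite to its relative *Sparc*, and these were the calls among 16 matricellular genes. Of the transcription factors, *Mef2c* and *Tbx3* had log2 fold changes of -3.4 ± 0.59 (adjusted p = 0.0153) and -7.85 ± 1.56 (adjusted p = 0.0311), which with *Heyl* made 3 of 34, and *Tbx3* reached at most 0.739 CPM in a venous pool. *Klf2*, a flow-responsive factor best known from endothelium, measured 529.9 and 119 CPM in m2c with unequal pools, 1.33 and 2.95 CPM in m9c and 1.22 and 2.13 CPM in m15c (log2 fold change -7.41 ± 0.95, adjusted p = 0.00456). The remaining genes with the largest changes, *Ddit4l*, *Perp*, *Olfml2a*, *Net1*, *Tesc* and *Olfr558*, had log2 fold changes from -7.94 to -7.28 and at most 8.67 CPM in a venous pool.

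Among 11 Notch genes, 2 targets were called higher in arterial cells. *Heyl* measured 1046 and 1277 CPM in m2c (log2 fold change -1.53 ± 0.27, adjusted p = 0.0149, and log2 fold change -1.24, adjusted p = 0.105 without the deepest male m15c cell), and *Hes1* measured 515 and 267 CPM in m2c, 105 and 80.8 CPM in m9c and 30.0 and 32.6 CPM in m15c (log2 fold change -2.86 ± 0.53, adjusted p = 0.022). The other 9 tested Notch genes were not called, *Notch3* among them at 1203 and 684 CPM in m9c, 354 and 286 CPM in m15c and 563 and 830.3 CPM in m2c (log2 fold change -0.3 ± 0.35, adjusted p = 0.909). Of 18 contractile genes *Des* alone was called, at 2936 and 3079 CPM in m2c (log2 fold change -1.61 ± 0.3, adjusted p = 0.0208), and *Myh11* with the block (adjusted p = 0.193 without and 0.0185 with it). For *Myh11* the lower venous level was that of m9c.

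Immediate early genes were also higher in m2c, with 9 of 17 called without and 11 with the block, beside 0.521% and 0.81% of all genes. None was called in the venous direction, and the median was -2.60. For 12 of the 17 the pools did not overlap and were higher in m2c, beside 13.9% of all genes. *Nr4a1* measured 4673 and 2903 CPM in m2c, 611 and 88.5 CPM in m15c and 8.0 and 46.3 CPM in m9c (log2 fold change -5.29 ± 0.73, adjusted p = 0.00649). Of its male m15c counts 91.1% came from the deepest cell, and the level was 111 CPM without it. *Fos* measured 5374 and 4412 CPM in m2c (log2 fold change -2.78 ± 0.53, adjusted p = 0.0233), and *Junb* and *Dusp1* had log2 fold changes of -2.7 ± 0.39 (adjusted p = 0.0074) and -2.0 ± 0.42 (adjusted p = 0.0416). The part of the dissociation in the arterial side was not tested. No gene of the axon guidance, connexin, cell cycle and nephronectin lists was called without the block, where 1825 of all genes had an unadjusted p under 0.05. *Npnt* gave a log2 fold change of 0.42 ± 1.07 (adjusted p = 0.996), and m2c at 46.5 and 29.5 CPM lay between m15c and m9c in both pools.

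Against the portal vein mural cells of m8c (60 male and 12 female cells), few genes were called. They were 10 genes (0.0659%), 2 (0.0132%) higher in m9c and m15c and 8 (0.0527%) higher in m8c. With the block there were 17 (0.112%), 5 (0.0329%) and 12 (0.0791%) in the same order, and 9 of the 10 genes, each one named below among them, were called in both fits. The counts were 208 and 383 in DESeq2, 46 and 157 without a filter on low counts, 0 and 1 in the fit of the compared clusters alone, and 1 and 5 without the deepest male m15c cell. Without that cell *Fgfr2*, *Ephx3*, *Hsd11b1*, *Ifitm1* and *Heyl* were not called (adjusted p = 0.116, 0.0796, 0.0579, 0.0579 and 0.128), at log2 fold changes of 5.18, -3.06, -2.79, -2.57 and -1.6, in the same direction as with it. *Fgfr2*, a fibroblast growth factor receptor, measured 531 and 231 CPM in m9c, 116 and 150.2 CPM in m15c and 3.85 and 6.58 CPM in m8c (log2 fold change 5.44 ± 0.8, adjusted p = 0.0445), and 210 bases of its exons overlap *Ctbp2* on the same strand. Its male m15c level was 31.2 CPM without the deepest cell. *Efemp1* measured 722 and 758 CPM in m9c, 72.2 and 175 CPM in m15c and 4.9 and 20.04 CPM in m8c (log2 fold change 4.59 ± 0.69, adjusted p = 0.0448). Every venous pool lay above both m8c pools for these genes, as for 3.39% of all genes, while 8.32% lay wholly higher in m8c and 11.7% did not overlap in either direction. *Ephx3*, an epoxide hydrolase, measured 1595 and 2068 CPM in m8c, 118 and 408 CPM in m9c and 144 and 94.3 CPM in m15c (log2 fold change -3.39 ± 0.46, adjusted p = 0.0445). Venous levels of *Ephx3* were thus lower but not absent.

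Other genes called higher in m8c, given with their log2 fold change and adjusted p, were *Steap4* (-3.85 ± 0.54, adjusted p = 0.0445), *Ndufa4l2* (-3.38 ± 0.41, 0.0445), *Hsd11b1* (-3.01 ± 0.43, 0.0445), *Ifitm1* (-2.76 ± 0.43, 0.0496), *Gpx3* (-2.28 ± 0.34, 0.0445) and *Heyl* (-1.89 ± 0.27, 0.0445). Of these, *Steap4*, *Ndufa4l2*, *Hsd11b1* and *Ifitm1* were also called higher in m9c than in m15c without the block, and m8c lay above m9c in both pools for each, as for *Ifitm1* at 947 and 589.7 CPM. The comparisons share the m9c and m15c sums. *Gpx3*, an extracellular glutathione peroxidase, measured 2312 and 1427 CPM in m8c, 754 and 660.0 CPM in m9c and 128.5 and 284 CPM in m15c. Among the 5 markers none was called, with *Npnt* at a log2 fold change of 4.73 ± 1.39 (adjusted p = 0.293) and *Chrdl1* at -0.72 ± 0.61 (adjusted p = 0.796). *Cspg4* and *Higd1b*, pericyte markers, were at 171 and 212 and at 130.0 and 135 CPM in m8c and at most 25.2 and 15.8 CPM in a venous pool (adjusted p = 0.358 and 0.287). Of the lists only the elastic fibre list (*Efemp1*) and the Notch and transcription factor lists (*Heyl*) held a call without the block.

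Within m9c and m15c the male and female pools differed in several genes, named after their values were seen and without a test since sex and plate coincide. *Vtn*, vitronectin, measured 778 and 845.2 CPM in m9c, but 0.612 and 238 CPM in m15c, where single female cells reached 2463 CPM. *Bmpr1b*, a BMP receptor, measured 270.4 and 10.7 CPM in m15c, with 94.1% of the male counts from the deepest cell and 32.4 CPM without it, and *Actc1*, cardiac actin, measured 1.84 and 191 CPM in m15c with 0 counts in m9c. *Kcnk3*, a potassium leak channel, measured 159 and 1140.5 CPM in m15c and 96.5 and 12.3 CPM in m9c, so each cluster held a different order of the sexes. *Myocd*, the coactivator of smooth muscle genes, measured 962 and 218 CPM in m15c, 645 and 175 CPM in m2c and 25.5 and 31.8 CPM in m9c, and *Pdgfra*, a fibroblast receptor used in the sort, 155 and 36.4 CPM in m9c and 3.06 and 21.6 CPM in m15c. In m15c and m2c the male pool thus stood above the female for *Myocd*, and in m9c it did not.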

How the data were processed

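The authors sorted single liver cells into 384-well plates, made Smart-seq2 libraries and deposited raw read counts per gene and cell, with a table of clusters and annotations for the mesenchymal cells. The submitters' processing notes name bcl2fastq, Bowtie, Bowtie2, Subread, featureCounts and Seurat and the builds GRCm38 and mm10, and whether counting used strand is not given in the sources used here. The authors had removed cells with few or very many genes and cells that looked contaminated, and no doublet caller was run here. Smart-seq2 carries no molecular identifiers, so floors cover counting error only. The binomial intervals on shares treat cells as independent draws and do not cover the spread between pools. Of 3491 columns of cells, 40 without a match in the labels or metadata were not used, 92 spike-in rows were left out, and 46517 genes remained.

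Counts were summed per cluster and pool over the mural clusters m2c, m5c, m8c, m9c and m15c, giving 10 sums of at least 5 cells. They were fitted together in edgeR 4.0.16 (R 4.3.3) with TMM scaling, filterByExpr and the quasi-likelihood test, with 5 residual degrees of freedom. Contrasts were m9c against m15c, their mean against m2c and their mean against m8c. A floor was 3 counts over a group. Named were the 5 markers, up to 10 called genes per direction with the largest changes that were counted in at least 50% of cells of the higher side, and up to 4 called genes of each of 22 lists with values. Genes named beyond this were picked after their values were seen. Members and lists were chosen with earlier results of these data known. The male and female sums of all clusters each come from 1 sample, which pairs them, and over the 10 cluster pairs the correlation of deviations from cluster means was 0.0191 to 0.144, so the pool served as a block in a second fit. Nothing in the labels says how many mice a pool holds, so p-values measure the spread between pools, which may be technical. Other choices tried were DESeq2 1.42.0, upper quartile scaling, no filter on low counts, other minimum numbers of cells, cells thinned to equal depth, sums per plate, a fit of the compared clusters alone and each pool left out. In simulated counts for m9c against m15c over 14678 genes, the procedure recovered 17 of 100 genes changed by 3 and 50 of 100 changed by 5 on the log2 scale, with 2 false among 69 calls. The changed genes were drawn from the more highly expressed ones. No pool or plate effect and no cell that dominates a sum was simulated, so these rates may differ in the data. Overlaps of annotated exons were read from GENCODE. Figures and shares were computed in Python 3.11.15 with pandas 2.3.3, numpy 2.4.6 and scipy 1.17.1. A few genes that met the naming rule are not reported here.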

Additional observations from a re-analysis of the deposited data

Results flagged for a closer look

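*Net1*, called higher in arterial cells, differed between m9c and m15c in opposite directions in the pools, with a log2 ratio of m9c over m15c of 2.12 in the male and -2.45 in the female pool. Its levels were 1.67 and 0.492 CPM in m9c and 0 and 4.94 CPM in m15c, all below 5 CPM, and the difference between pools was not tested. *Chrdl1* measured 107 CPM in 5 male cells that the authors annotated as contaminants among the immune cells. *Col8a1* measured 384 CPM in 61 male portal vein endothelial cells, and 249 CPM in 51 female ones, beside 1207 and 672 CPM in m9c. Both signals lay outside the mural cells compared above.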

How the results depend on the processing

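The number of calls moved with most choices, and counts below give m9c then m15c, venous then m2c, and venous then m8c. DESeq2 gave 628 and 556, 414 and 469, and 208 and 383. Without a filter on low counts there were 178 and 125, 200 and 317, and 46 and 157. Upper quartile scaling gave 10 and 3, 106 and 89, and 2 and 8, and it moved the median log2 fold change of all genes from 0.14 to 0.04 for m9c against m15c and from -0.29 to -0.37 for the venous clusters against m2c. Leaving out sums under 10 cells removed the male m15c sum and gave 0 and 0 (1530 genes at an unadjusted p under 0.05), 148 and 75, and 2 and 7, with the lone m15c sum assumed to vary like the other clusters. A minimum of 3 cells left all sums as they were. Cells thinned to 50000 counts gave 34 and 11, 126 and 140, and 5 and 22. Sums per plate gave 0 and 0 (984 genes at an unadjusted p under 0.05), 35 and 3, and 1 and 0 (898 genes). The fit of the compared clusters alone gave 4 and 3, 56 and 52, and 0 and 1 (685 genes). Keeping only members of the main multilevel cluster, a choice made after seeing the data, gave 26 and 5, 110 and 83, and 2 and 13. Leaving out the deepest male m15c cell, which held 50.9% of that sum and was also a choice made after seeing the data, gave 10 and 2, 113 and 76, and 1 and 5. The replicate block pairing the pools gave 61 and 14, 152 and 123, and 5 and 12. The cause of these moves was not tested.

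Of 123 gene values that met the naming rule, the block took 1, in the comparison with m8c and of a gene not reported here, below the threshold and brought 8 past it, and sums per plate, the harshest choice, took 84 below it. Without the deepest male m15c cell 23 fell below it, 10 of them for m9c against m15c, and 1 passed it, with no change of direction. Leaving out the male or the female pool leaves 1 sum per cluster and no test, and it moved 24 and 26 values by more than their spread and reversed 0. That spread was taken from the same pools, and the pools of called genes rarely overlapped between the compared groups. Few moves and no reversal were thus largely built in, so these counts cannot show whether the values are stable. The direction reversed for *Npnt* against m2c with the block (-0.00695) and for *Col8a1* against m8c with the block (0.25) and without sums under 10 cells (0.0423), and none of these was called. The male m15c sum held 1634619 counts from 7 cells, 832407 of them from 1 cell.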
